A study of Mus musculus with 6 samples.

Results

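Guanylate-binding proteins (GBPs) are large GTPases of the dynamin superfamily that interferons induce, above all interferon-gamma. They gather on the vacuoles and membranes of intracellular pathogens, help to break them open and pass bacterial products to inflammasomes. The genes are switched on by transcription factors that bind GAS elements and interferon-stimulated response elements (ISREs) in their promoters, among them IRF1, which binds ISREs. In the mouse they lie in a cluster on chromosome 3 and a second cluster on chromosome 5. The genes described here are the 10 rows of the deposited gene table named Gbp2 to Gbp11, of 24495 gene symbols in all. All 10 symbols were present. The rows were taken by symbol, and the family itself was selected on measured values: it was chosen by the lower Gbp2 and Gbp3 levels, scaled for library size, with EPZ5676 in same-numbered pairs and their call in the fit that blocks on these pairs. Differences of the members between the groups are therefore a description and carry no test.

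The EPZ5676 group consisted of cultured spermatogonial stem cells, from which sperm production is renewed, exposed for 2 weeks to 2 uM EPZ5676 (pinometostat), an inhibitor of the histone H3 lysine methyltransferase DOT1L. The ethanol group held the same kind of culture given 0.2% ethanol as vehicle over the same time. Both groups came from testes of DBA2 mice at postnatal days 5 to 8, with 3 libraries each that the design text calls biological triplicates. The sources used here do not say what the replicate numbers stand for, how many animals gave cells or whether feeder cells were present.

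Gene counts totalled 19866337 to 54645903 in the EPZ5676 libraries and 17784332 to 21046473 in the ethanol libraries. Levels are CPM after TMM scaling, that is, gene counts divided by the scaled library total in units of 1e6 reads. Of 18 germ line markers, all 18 passed the filter on low counts, with a summed level of 5276 to 5451 CPM with EPZ5676 and 5088 to 5563 CPM with ethanol. Both libraries numbered 2 stood apart from the other 4 on the first principal component, which carried 48.7% of the variance. All 26 fibroblast markers passed the filter as well. Their summed level was 1798, 2375 and 2000 CPM in EPZ5676 replicates 1, 2 and 3, against 1764, 3304 and 1949 CPM in ethanol replicates 1, 2 and 3, highest in the libraries numbered 2 of both groups. None of the fibroblast markers was at 0. Dot1l, the gene of the inhibited enzyme, was at 251, 279 and 199 CPM with EPZ5676 and 198, 205 and 202 CPM with ethanol (replicates 1, 2 and 3), which does not measure the enzyme's activity. Of 12 macrophage markers with a row, 6 passed the filter, and their summed level was 13.6 to 20.2 CPM with EPZ5676 and 16.0 to 20.8 CPM with ethanol. Summed endothelial markers gave 18.8 to 20.9 CPM with EPZ5676 and 18.9 to 22.9 CPM with ethanol, Sertoli markers 30.4 to 39.4 and 32.7 to 47.4 CPM, and Leydig markers 5.52 to 6.87 and 7.93 to 10.4 CPM, with Lhcgr at 0 in all 6 libraries. The part of these other cells in the Gbp values was not tested. In such bulk libraries fewer cells of a type and less RNA per cell cannot be told apart.

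Members of the 2 clusters differ in how much sequence they share. In the reading frames of GENCODE M21 transcripts (GRCm38), the 6 pairs on chromosome 3 (Gbp2, Gbp3, Gbp5 and Gbp7) were identical at 64.8% to 78.5% of aligned bases, and the 15 pairs on chromosome 5 (Gbp4, Gbp6, Gbp8, Gbp9, Gbp10 and Gbp11) at 90.2% to 98.4%. The 24 pairs with a gene on each chromosome ranged from 64.0% to 77.3%. The coding bases of the phosphate-binding loop (P-loop), which grips GTP, with 2 flanking codons on each side, show this in a small window. They are printed because every member carries this loop, and capitals mark bases that differ from Gbp2 at the same place. Gbp8, Gbp9, Gbp6 and Gbp11 share the same 36 bases, so 1 line stands for these 4.
Gbp2: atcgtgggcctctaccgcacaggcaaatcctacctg
Gbp5: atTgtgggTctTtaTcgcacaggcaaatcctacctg
Gbp7: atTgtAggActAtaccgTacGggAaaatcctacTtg
Gbp3: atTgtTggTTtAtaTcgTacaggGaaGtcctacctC
Gbp8: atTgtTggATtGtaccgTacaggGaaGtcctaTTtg
Gbp4: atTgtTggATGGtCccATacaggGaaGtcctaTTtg
Gbp10: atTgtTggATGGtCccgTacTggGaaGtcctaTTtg
Gbp5 differed from Gbp2 at 4 of these bases, Gbp7 at 8, Gbp3 at 10, and Gbp4 and Gbp10 at 13 each.

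**Figure D1:**
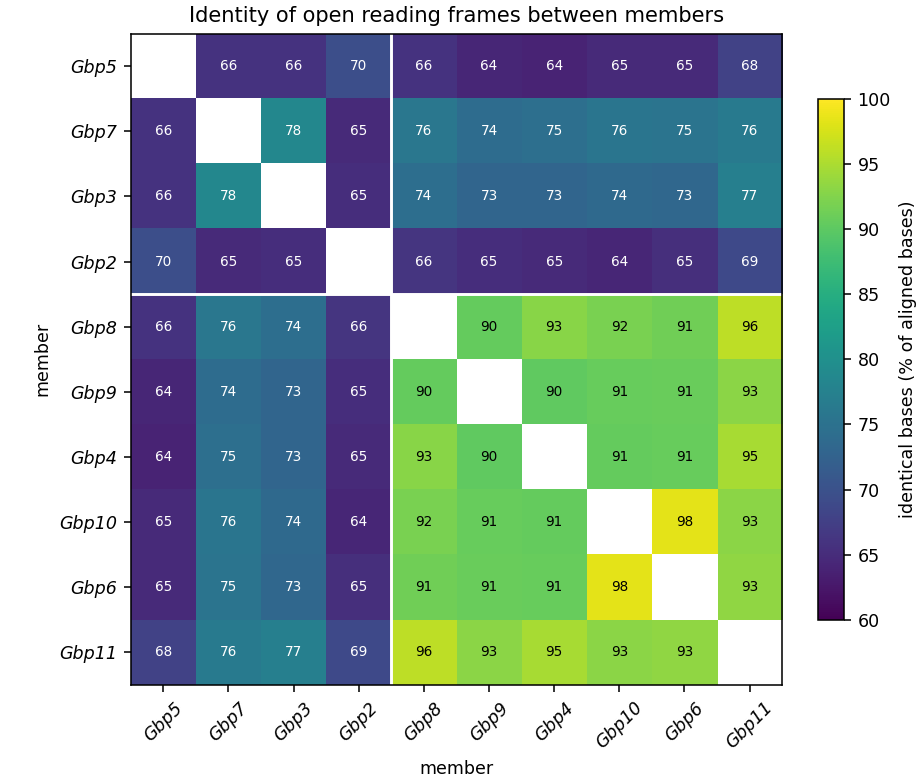
Identical bases, in percent of aligned bases, between the open reading frames of each pair of members, in chromosomal order, with white lines between the chromosome 3 and chromosome 5 clusters. The 15 pairs within chromosome 5 form a block at 90.2% to 98.4%, while no other pair exceeds 78.5%.

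The end of the reading frame also differed between members. A cysteine codon at the place of the C in the CaaX signal, a motif at the very end of a protein to which a prenyl membrane anchor is attached, was found in Gbp2 and Gbp5 and in none of the other 8 members. The last 15 bases of both are shown for this reason, with the cysteine codon in capitals and the stop codon at the end.
Gbp2: TGCactatactctga
Gbp5: TGTgttataagctaa

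How far a read can be assigned follows from this identity. Of all 50-base windows of the transcripts used, 2.07% of those in Gbp2 and 4.79% of those in Gbp3 occurred identically in a transcript of another gene. For Gbp2 that gene was Gbp2b, a neighbour outside the 10 members, and for Gbp3 it was almost always Gbp7. In Gbp7 the share was 12.85%, mostly with the processed pseudogene Gm43802, and in Gbp5 it was 0.898%. On chromosome 5 the share was 9.56% in Gbp9, 12.8% in Gbp4, 19.2% in Gbp11 and 21.2% in Gbp8, but 82.5% in Gbp10 and 90.2% in Gbp6. The annotated gene Gm43302 spans both Gbp10 and Gbp6. Values of Gbp6 and Gbp10 are therefore uncertain, whereas Gbp2 and Gbp3 are largely distinct from each other. Read length, annotation and the handling of reads that align to several places are not stated in those sources. The cells were DBA2, while the named build, mm9, is that of C57BL/6J, and the part of strain differences was not tested.

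Gbp2 and Gbp3 supplied nearly all Gbp counts. Together they made up 91.8%, 91.0% and 92.3% of the members' counts in EPZ5676 replicates 1, 2 and 3, against 93.0%, 92.5% and 93.2% in ethanol replicates 1, 2 and 3, with exact (Clopper-Pearson) 95% intervals between 90.4% and 93.7% that cover counting error alone. Per kilobase of annotated exon, the mean Gbp2 level was 54.7 ± 14.9 CPM per kb with EPZ5676, against 73.7 ± 21.4 CPM per kb with ethanol (SD, n = 3 each). Gbp3 followed at 36.3 ± 10.8 and 49.7 ± 17.03 CPM per kb. The next member, Gbp7, was at 1.745 ± 0.579 CPM per kb with EPZ5676 and 2.03 ± 0.846 CPM per kb with ethanol.

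The order below these was Gbp11, Gbp8, Gbp9, Gbp6, Gbp10, Gbp4 and Gbp5, by the mean over all 6 libraries, from 1.68 CPM per kb for Gbp11 to 0.0354 CPM per kb for Gbp5. Gbp2 exceeded Gbp3, Gbp3 exceeded Gbp7, Gbp8 exceeded Gbp9, Gbp6 exceeded Gbp10 and Gbp10 exceeded Gbp4 in 6 of 6 libraries. Other neighbours in the order crossed. Gbp7 was above Gbp11 in 5 of 6 libraries, Gbp11 above Gbp8 in 4, Gbp9 above Gbp6 in 4, and Gbp4 above Gbp5 in 5. The order of Gbp8 and Gbp9 depends on the division by exon length. For Gbp6 and Gbp10, the order of the ethanol means depends on it, whereas that of the EPZ5676 means does not. In CPM, Gbp9 averaged 2.50 with EPZ5676 and 3.44 with ethanol, above Gbp8 at 2.20 and 2.42. Gbp6 averaged 1.42 and 1.35 CPM, against 1.27 and 1.42 CPM for Gbp10, and both share most of their sequence with other transcripts.

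**Figure D2:**
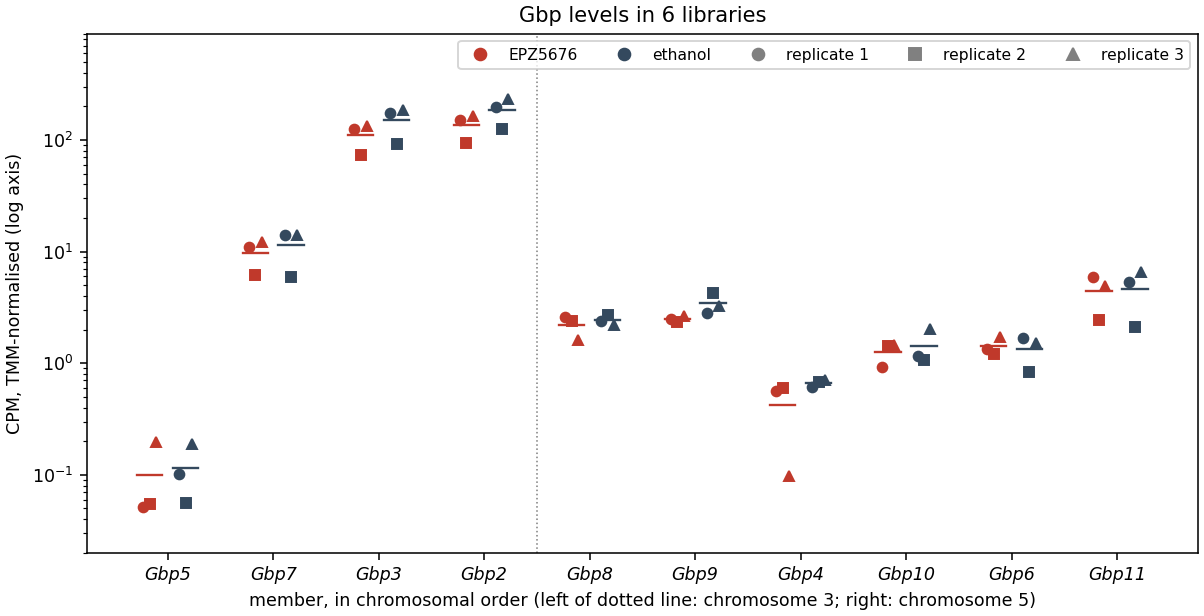
CPM of each member (log axis) in EPZ5676 libraries (red, left) and ethanol libraries (dark, right), with marker shapes for replicates 1 to 3 and a bar at each group mean, n = 3. Gbp2 and Gbp3 stand far above the other members. In Gbp2, Gbp3, Gbp6, Gbp7 and Gbp11 the replicate 2 square is the lowest point of both groups.

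Gbp2, whose prenylated protein is recruited to the Toxoplasma vacuole in mouse cells, was lower in the EPZ5676 library of every same-numbered pair. Its level was 152, 94.8 and 165 CPM in EPZ5676 replicates 1, 2 and 3, against 199, 126 and 231 CPM in ethanol replicates 1, 2 and 3. The groups overlapped, because ethanol replicate 2 lay below EPZ5676 replicates 1 and 3. The log2 difference within pairs 1, 2 and 3 was -0.39, -0.41 and -0.48. The fitted log2 fold change was -0.43 ± 0.25 (SE) without pairing and -0.43 ± 0.05 when replicate numbers entered as a block, a level 1.34-fold lower in the blocked fit.

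Gbp3, a further member recruited to that vacuole, was at 127, 73.2 and 133 CPM in EPZ5676 replicates 1, 2 and 3, against 176, 92.1 and 187 CPM in ethanol replicates 1, 2 and 3. It had the same order of libraries as Gbp2, with both libraries numbered 2 lowest. The log2 difference within pairs 1, 2 and 3 was -0.48, -0.33 and -0.49, and the fitted log2 fold change was -0.46 ± 0.29 (SE) without the block and -0.43 ± 0.06 with it. The ratio of Gbp2 to Gbp3 counts stayed between 1.205 and 1.30 with EPZ5676 and between 1.13 and 1.37 with ethanol.

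These 2 members are those that edgeR's quasi-likelihood test called at an adjusted p under 0.05 in the blocked fit, which is how the family came to be chosen. That fit called 0.653% of 14855 genes in either direction and 0.33% as lower. Without the block the same test called 0 members and 0% of all genes, with 1101 of all genes at an unadjusted p under 0.05. DESeq2 without the block called 0 members and limma-voom called 0. Without pair 1 the blocked edgeR fit called neither Gbp2 nor Gbp3, and 0 of all genes. The size of the unblocked difference depended on the libraries present. Without EPZ5676 replicate 2 it was -0.22 for Gbp2 and -0.23 for Gbp3, without ethanol replicate 2 it was -0.65 and -0.72, and without ethanol replicate 3 it was -0.24 and -0.28.

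Gbp7, which helps to assemble the phagocyte NADPH oxidase in mouse macrophages, was at 10.996, 6.11 and 12.3 CPM in EPZ5676 replicates 1, 2 and 3, against 14.1, 5.94 and 14.2 CPM in ethanol replicates 1, 2 and 3. It was lower with EPZ5676 in pairs 1 and 3 and marginally higher in pair 2, with log2 differences of -0.36, 0.04 and -0.21. Its fitted log2 fold change was -0.24 ± 0.36 (SE), or -0.19 ± 0.12 with the block. Gbp5, which promotes inflammasome activity in mouse macrophages, was barely detected, with 1, 3 and 4 counts in EPZ5676 replicates 1, 2 and 3, against 2, 1 and 4 counts in ethanol replicates 1, 2 and 3. It was the 1 member that did not pass the filter on low counts.

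**Figure D3:**
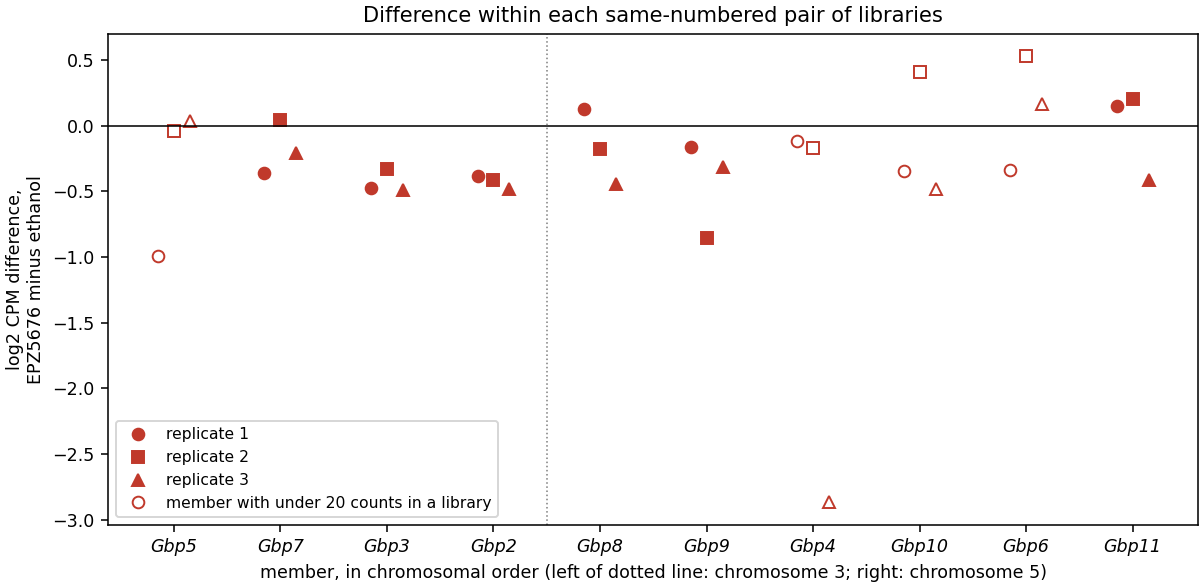
Log2 CPM difference, EPZ5676 minus ethanol, within same-numbered libraries for each member, n = 3 pairs, with open markers for members that had under 20 counts in at least 1 library. The Gbp2 and Gbp3 points lie together between -0.49 and -0.33, and those of Gbp4 and Gbp9 are also all below 0. Points of Gbp5, Gbp6, Gbp7, Gbp8, Gbp10 and Gbp11 lie on both sides of 0.

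Values of the chromosome 5 members were low and mixed in direction. Gbp9, also recruited to the Toxoplasma vacuole, was at 2.51, 2.36 and 2.63 CPM in EPZ5676 replicates 1, 2 and 3, against 2.80, 4.26 and 3.28 CPM in ethanol replicates 1, 2 and 3. These groups did not overlap, and the fitted log2 fold change was -0.46 ± 0.22 (SE) without and -0.48 ± 0.20 with the block. Gbp4, which dampens IRF7 signalling in the mouse, had 11, 33 and 2 counts in EPZ5676 replicates 1, 2 and 3, against 12, 12 and 15 counts in ethanol replicates 1, 2 and 3. In CPM these were 0.563, 0.599 and 0.0975 with EPZ5676, against 0.610, 0.672 and 0.712 with ethanol, which did not overlap but lay close together apart from EPZ5676 replicate 3. Its log2 difference of -2.87 in pair 3 rests on the 2 counts in EPZ5676 replicate 3, and the values in pairs 1 and 2 were -0.12 and -0.17. Groups that do not overlap, with EPZ5676 lower, were found in 7.64% of all genes tested, and the contrast is the one by which the family was chosen.

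Gbp8 had 51, 131 and 33 counts in EPZ5676 replicates 1, 2 and 3, against 47, 48 and 46 counts in ethanol replicates 1, 2 and 3. Its fitted log2 fold change was -0.13 ± 0.25 (SE). Gbp11, which RefSeq lists as a transcribed pseudogene, was at 5.88, 2.45 and 4.87 CPM in EPZ5676 replicates 1, 2 and 3, against 5.29, 2.13 and 6.50 CPM in ethanol replicates 1, 2 and 3, higher with EPZ5676 in pairs 1 and 2 and lower in pair 3. Gbp10 and Gbp6, whose reads are hard to separate, had fitted log2 fold changes of -0.16 ± 0.33 and 0.05 ± 0.31. Gbp6 was the 1 tested member with a positive value.

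Over the family, 8 of the 9 tested members had negative unblocked values and their median was -0.24 on the log2 scale, beside 51.7% negative and a median of -0.0066 over all 14855 genes tested. Fibroblast markers had a like median of -0.24, with 23 of 26 negative, and that median was 0.0992 without ethanol replicate 2. Of 6 tested macrophage markers 5 were negative, with a median of -0.37, and the part of either in the Gbp values was not tested. The members' median was -0.38 without EPZ5676 replicate 1 and -0.47 without ethanol replicate 2. Lower in all 3 pairs were Gbp2, Gbp3, Gbp4 and Gbp9, and 22.3% of all genes tested were lower in all 3 pairs. The summed level of the 10 members was 271 ± 75.1 CPM with EPZ5676, against 363 ± 112 CPM with ethanol (SD, n = 3 each), a log2 ratio of -0.42. That difference is close to the spread between libraries of a group. Within pairs 1, 2 and 3 the log2 difference of the sum was -0.41, -0.35 and -0.47. Without EPZ5676 replicate 2 the log2 ratio was -0.21, without ethanol replicate 3 it was -0.24, and without ethanol replicate 2 it was -0.66. The chromosome 3 members summed to 258 ± 73.7 CPM with EPZ5676 and 349 ± 110.0 CPM with ethanol, and the chromosome 5 members to 12.2 ± 1.70 and 13.9 ± 2.29 CPM.

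Gbp levels also differed by replicate number. The replicate 2 level of Gbp2 was 0.597 times the mean of replicates 1 and 3 with EPZ5676 and 0.586 times with ethanol. For Gbp3 these ratios were 0.563 and 0.507, for Gbp7 0.525 and 0.419, and for Gbp11 0.456 and 0.361. For Gbp6 the ratios were 0.801 and 0.526, and for Gbp5, with very few counts, 0.442 and 0.384. Gbp8 did not share this, with ratios of 1.13 and 1.18, nor did Gbp4, with 1.81 and 1.02. Gbp9 had ratios of 0.918 and 1.402, and Gbp10 of 1.19 and 0.663. The libraries numbered 2 are also those with the highest fibroblast marker level, and EPZ5676 replicate 2 has the highest total count. Their part in the ratios was not tested.

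RefSeq promoter windows of GRCm38.p6, from 250 bases before to 50 bases after the gene start, were at hand for 4 of the 10 members, Gbp2, Gbp3, Gbp5 and Gbp7. Each window was searched on both strands for the ISRE core, GAAA then NN then GAAA, and the GAS core, TTC then NNN then GAA, where N is any base. All 4 members had the ISRE core in a window, against 3.44% of all 32851 promoter windows. It began 59 bases before the gene start in Gbp2, 53 in Gbp7 and 165 in Gbp5, and at 45 and 39 bases before the start in Gbp3, where 2 overlapping matches form a longer run. The GAS core was found in Gbp5 and Gbp7, at 2 places each, and in 8.30% of all windows. The GAS core was not matched in the windows of Gbp2 and Gbp3. A second Gbp3 window, for another start, held neither core. Both cores together were found in 0.454% of windows. A match is a stretch of letters and no measurement of binding. The windows of Gbp2 and Gbp3 are shown because these members carry nearly all Gbp counts, and that of Gbp7 because it holds both cores, with the matched bases in capitals.
Gbp2, chr3:142620413-142620712, plus strand: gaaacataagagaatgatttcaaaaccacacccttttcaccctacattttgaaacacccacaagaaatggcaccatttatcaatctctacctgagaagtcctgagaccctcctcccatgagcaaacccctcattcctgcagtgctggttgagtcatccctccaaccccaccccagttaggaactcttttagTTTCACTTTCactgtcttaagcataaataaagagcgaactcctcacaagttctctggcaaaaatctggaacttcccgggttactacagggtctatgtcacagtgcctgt
Gbp3, chr3:142559794-142560093, plus strand: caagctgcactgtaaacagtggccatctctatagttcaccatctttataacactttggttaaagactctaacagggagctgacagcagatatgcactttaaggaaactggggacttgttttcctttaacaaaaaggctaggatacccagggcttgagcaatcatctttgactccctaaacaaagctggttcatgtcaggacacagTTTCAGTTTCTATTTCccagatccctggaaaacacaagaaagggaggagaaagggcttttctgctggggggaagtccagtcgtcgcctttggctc
Gbp7, chr3:142530086-142530385, plus strand: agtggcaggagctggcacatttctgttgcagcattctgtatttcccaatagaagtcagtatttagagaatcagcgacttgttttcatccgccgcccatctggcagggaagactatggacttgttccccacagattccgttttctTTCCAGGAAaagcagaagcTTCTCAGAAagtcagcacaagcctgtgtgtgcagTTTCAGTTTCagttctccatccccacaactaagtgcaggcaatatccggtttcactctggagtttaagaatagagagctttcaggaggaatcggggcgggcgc

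The regulators that drive these genes were expressed in the same libraries. Of 24 interferon receptor and signalling genes, 22 were tested, and 0 passed over all genes in either direction in edgeR's quasi-likelihood test, with or without the block. Their median log2 fold change was -0.09, and 13 of 22 were negative, beside 51.7% of all genes tested. Irf1, itself induced by interferon and an activator of Gbp genes, was at 429, 362 and 451 CPM in EPZ5676 replicates 1, 2 and 3. In ethanol replicates 1, 2 and 3 it was at 519, 380 and 495 CPM, and the groups overlapped. Within pairs 1, 2 and 3 its log2 difference was -0.27, -0.07 and -0.14. Its fitted log2 fold change was -0.17 ± 0.13 (SE) without the block and -0.16 ± 0.06 with it.

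The interferon-gamma receptor chains, Ifngr1 and Ifngr2, did not pass in either fit, and the difference between them was not tested. Ifngr2 averaged 49.9 ± 7.22 CPM with EPZ5676, against 61.7 ± 5.75 CPM with ethanol (SD, n = 3 each), and its log2 difference of -0.31 ± 0.13 (SE) had an adjusted p of 0.653, or 0.0782 with the block. Ifngr1 had a log2 fold change of 0.05 ± 0.16. Jak1 and Jak2, the kinases bound to these chains, had values of -0.09 ± 0.12 and 0.003 ± 0.08. Ifnb1 had 0 counts in all 6 libraries. Ifng, the gene of interferon-gamma itself, had 1, 1 and 0 counts in EPZ5676 replicates 1, 2 and 3 and 0 counts in all 3 ethanol libraries.

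**Figure D4:**
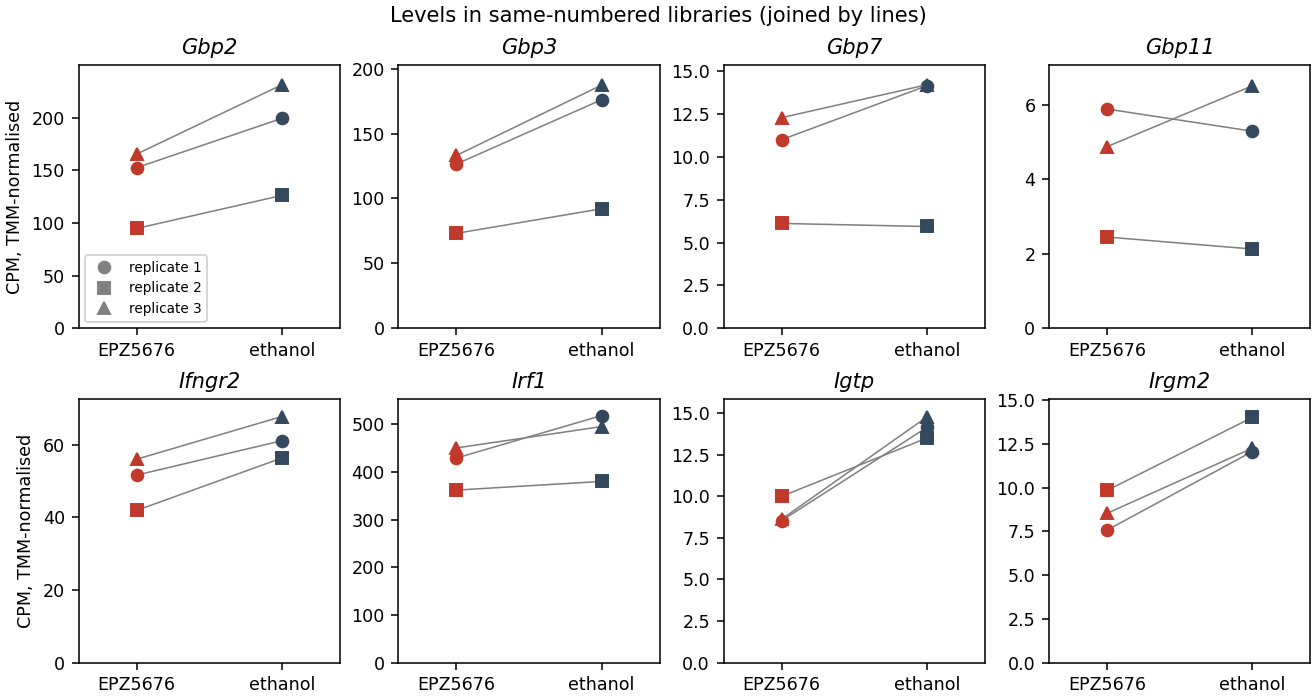
CPM of Gbp2, Gbp3, Gbp7, Gbp11, Ifngr2, Irf1, Igtp and Irgm2 in EPZ5676 libraries (left, red) and ethanol libraries (right, dark), with grey lines joining libraries of the same number and axes that start at 0. Replicate 2 (squares) is lowest in both groups for the first 6 genes, whereas Irgm2 is highest there and the Igtp groups are separated at every number.

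Other interferon-inducible GTPases were set beside the Gbp genes. Of 17 listed, 8 were tested, 0 passed over all genes with or without the block, and the median log2 fold change was -0.32. Igtp, an immunity-related GTPase that regulates others on vacuole membranes, averaged 9.05 ± 0.818 CPM with EPZ5676, against 14.1 ± 0.633 CPM with ethanol (SD, n = 3 each), with an adjusted p of 0.454, or 0.0519 with the block. Irgm2, of the same regulatory group, averaged 8.64 ± 1.14 and 12.8 ± 1.07 CPM, with an adjusted p of 0.596, or 0.0583 with the block. Irgm1 had a log2 fold change of -0.26 ± 0.11 (SE), and the antiviral GTPase genes Mx1 and Mx2 had values of -0.09 ± 0.30 and -0.64 ± 0.19. Groups of 5 of the 8 did not overlap, with EPZ5676 lower, against 7.64% of all genes. DESeq2 called Igtp lower, with an adjusted p of 0.0257 without and 0.0229 with the block. For Igtp, replicate 2 had the highest level of the EPZ5676 libraries and the lowest of the ethanol libraries, and for Irgm2 it had the highest level in both groups.

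Of 38 other interferon target genes, 35 were tested. In the blocked edgeR fit, 2 fell, Icam1 and Psmb8, and 0 rose, beside 0.33% of all genes tested that were called lower. Without the block 0 passed, and 32 of 35 were negative, with a median of -0.29, beside 51.7% negative over all genes tested. Icam1, an adhesion molecule, was at 23.0, 26.7 and 29.4 CPM in EPZ5676 replicates 1, 2 and 3, against 42.1, 40.4 and 53.5 CPM in ethanol replicates 1, 2 and 3. Its blocked log2 difference was -0.78 ± 0.09 (SE; adjusted p = 0.0173), and that of Psmb8, an immunoproteasome subunit, was -0.65 ± 0.11 (adjusted p = 0.0485). Neither was called without pair 1. This list and the GTPase list were chosen with earlier results of these data known, so their direction is not independent evidence.

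Genes that flank the Gbp clusters were examined to see whether the difference extended to neighbours. Of 20 protein-coding genes, the 5 nearest on each side of both clusters, 14 were tested, 0 passed with or without the block, 7 had a negative and 7 a positive log2 fold change, and the median was 0.05. Next to Gbp2 on chromosome 3, Kyat3, an aminotransferase gene, averaged 15.4 ± 1.65 CPM with EPZ5676, against 11.2 ± 1.56 CPM with ethanol (SD, n = 3 each), a log2 difference of 0.46 ± 0.15 (SE), and Gtf2b, a general transcription factor gene, had one of -0.07 ± 0.11. On that side Pkn2 and Lmo4 were at -0.23 ± 0.15 and -0.24 ± 0.16. On the other side of the chromosome 3 cluster, Pdlim5, Bmpr1b, Unc5c, Pdha2 and Stpg2 had values of -0.18 ± 0.09, 0.19 ± 0.18, 1.04 ± 0.36, 0.39 ± 0.10 and 0.28 ± 0.25. Beside the chromosome 5 cluster, Lrrc8b, Lrrc8c, Lrrc8d, Zfp326 and Zfp33b had values of -0.07 ± 0.12, -0.12 ± 0.29, -0.26 ± 0.08, 0.23 ± 0.10 and 0.17 ± 0.13. In the blocked edgeR fit 8 of the 14 had an unadjusted p under 0.05, beside 2751 of all 14855 genes tested. The lowest adjusted p there was 0.0518, for Pdha2. Groups did not overlap for Stpg2, Pdha2, Unc5c, Kyat3 and Zfp326, with EPZ5676 higher, and for Pdlim5 and Lrrc8d, with EPZ5676 lower. Among all genes tested these shares were 7.22% and 7.64%. No flanking gene passed, so none is called changed, but this does not show that they were unchanged.

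The genes whose log2 CPM over the 6 libraries was most like the log2 of the summed Gbp level, among the 10683 genes whose mean level reached 5 CPM, included Tes, Marc2, Lsm3 and Cep128. Their Pearson correlations lay between 0.996 and 0.998. The 2 libraries numbered 2, which stand apart, are among the 6 points, and their part in these values was not tested. All 4 had lower levels in the EPZ5676 library of every pair, as had 22.3% of all genes tested. These 4 were chosen by likeness to a sum that was itself lower in every pair, so their direction largely follows from that choice. Fitted log2 fold changes of the 4 lay between -0.29 and -0.06, and 0 passed in either fit.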

How the data were processed

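Read counts per gene symbol were deposited by the authors as whole numbers. The submitters' processing notes name the mm9 build and the tools Bowtie, STAR, edgeR and featureCounts, without versions. Per the labels' protocols, libraries were made from TRIzol-extracted RNA with a stranded mRNA kit, and whether counting used strand is not stated there. Under R 4.3.3, filterByExpr kept 14855 of the 24495 genes. After TMM scaling the groups were compared by the quasi-likelihood test of edgeR 4.0.16 (limma 3.58.1 and DESeq2 1.42.0 as alternatives), 2-sided, with Benjamini-Hochberg adjustment over all genes tested and a threshold of 0.05. The fit was checked on simulated counts. The repeat table was not used here.

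Same-numbered libraries deviated together from their group means (correlations of 0.41, 0.61 and 0.34 over genes for numbers 1, 2 and 3), which is above the bound of 0.1, so the numbers were taken as pairs, read from the labels and these data. Between EPZ5676 replicate 1 and ethanol replicate 3, and EPZ5676 replicate 3 and ethanol replicate 1, the values were 0.28 and 0.15. These are above the bound as well, so it cannot tell pairing by number from pairing with numbers 1 and 3 exchanged. Blocked results rest on pairing by number. Residual degrees of freedom were 4 unblocked and 2 blocked. P-values set the group difference against the variation left between these libraries, in the blocked fit after differences between replicate numbers are removed.

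Exon lengths, reading frames (longest in a coding transcript) and 50-base windows came from GENCODE M21 on GRCm38, alignments from Biopython 1.88, and promoters from RefSeq on GRCm38.p6. As the counts name mm9, only gene names, neighbours and, for the levels per kilobase, exon lengths were joined to them. The members, lists and the rule for named genes were chosen with earlier results of these data known. The rule named all members, 11 interferon genes, up to 4 called genes of each list per fit, all tested flanking genes, Dot1l, other Gbp rows and the 5 genes most like the summed Gbp level. Some items that the rule took are not reported here.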

Additional observations from a re-analysis of the deposited data

How the results depend on the processing

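The number of genes called over all genes was 0 without the block and 97 with the replicate block, 50 with DESeq2, 293 with DESeq2 and the replicate block, and 10 without both libraries numbered 2. It ranged from 0 to 795 when a library or pair was left out, with 795 of 14822 in the blocked fit without pair 2 and 761 of 14912 without pair 3. Called Gbp members numbered 2 with the replicate block, with DESeq2 and the block, and in the blocked fits without pair 2 or 3, and 0 in all 14 other fits, including library totals as scaling, no filter and the stricter filter. The log2 ratio of the summed Gbp level ranged from -0.66 to -0.21 when 1 library was left out (-0.52, -0.57 and -0.34 without EPZ5676 replicates 1 and 3 and ethanol replicate 1), and the members' median from -0.469 to -0.201 (-0.291 to -0.143 in blocked fits without a pair), with -0.38 without EPZ5676 replicate 1. Gbp2, Gbp3 and Gbp9 were negative in all 18 fits, and Gbp4 in all 17 that tested it. The other 5 tested members turned sign, with ranges of -0.20 to 0.33 for Gbp6, -0.56 to 0.02 for Gbp7, -0.29 to 0.04 for Gbp8, -0.43 to 0.19 for Gbp10 and -0.47 to 0.21 for Gbp11. Calls in the interferon-inducible GTPase list numbered 1 with DESeq2, 1 with DESeq2 and the block, and 0 to 3 with a pair left out (2 without pair 3). In the receptor and signalling list they numbered 0 to 2 with a pair left out (1 without pair 3). In the other target list they were 2 with the block, 1 with DESeq2, 6 with DESeq2 and the block and 0 to 14 with a pair left out (7 without pair 3). Recruitment and inflammasome genes gave 0 to 2 (1 without pair 3), flanking genes 1 with DESeq2 and the block and 0 to 3 with a pair left out, and fibroblast markers 4 with DESeq2 and the block and 0 to 9 with a pair left out (8 without pair 3). The median of the flanking genes was -0.07 with the stricter filter and fell to between -0.05 and -0.01 on leaving out EPZ5676 replicate 2, EPZ5676 replicate 3 or ethanol replicate 1. Signs near 0 also turned for Mx1, Ifngr1, Jak1 and Jak2. Mx1 ranged from -0.305 to 0.12 with 1 library left out, and was 0.0207 in the blocked fit without pair 2 and 0.041 without both libraries numbered 2. Ifngr1 ranged from -0.0546 to 0.198, and was -0.00257 with limma-voom and -0.00123 in the blocked fit without pair 1. Jak1 ranged from -0.175 to 0.0195. Jak2 ranged from -0.0449 to 0.0582, and was -0.00943 with library totals and -0.0383 and -0.0253 in the blocked fits without pairs 1 and 3. The cause of these changes was not tested. Blocked fits that leave out a pair have 1 residual degree of freedom. Low counts limit Gbp4 and Gbp5 most.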

Other observations

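Gbp2b, the chromosome 3 gene between Gbp3 and Gbp2 that is known as Gbp1 in older nomenclature, lies outside the 10 members. It was at 1.48, 0.962 and 2.14 CPM in EPZ5676 replicates 1, 2 and 3, against 2.39, 1.06 and 3.75 CPM in ethanol replicates 1, 2 and 3. It was lower with EPZ5676 in all 3 pairs, and its log2 fold change was -0.70 ± 0.46 (SE) without the block and -0.58 ± 0.22 with it. Its reading frame is the one most like that of Gbp2, with 82.5% of aligned bases identical. Its promoter window held the interferon-stimulated response element core 137 bases before the gene start.

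Much of the machinery that loads GBPs onto vacuoles and acts after them was expressed as well, but parts of it were barely detected. Of 27 listed genes, among them those for LC3-type conjugation, prenylation and inflammasomes, 25 were tested. In that list 0 passed with or without the block, and the median log2 fold change was -0.04. Not tested were Casp1, with 1 to 7 counts per library, and Cybb, with 0 to 7. Nlrp3 averaged 0.475 CPM with EPZ5676 and 0.564 CPM with ethanol. Casp4, whose product senses bacterial lipopolysaccharide in the cytosol, was at 0.869, 0.490 and 0.731 CPM in EPZ5676 replicates 1, 2 and 3, against 2.54, 1.06 and 1.66 CPM in ethanol replicates 1, 2 and 3. By the edgeR test its adjusted p was 0.596, or 0.0588 with the block. It was chosen after its values were seen.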
